A study of Mus musculus with 6 samples.

Results

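Egr1, Egr2, Egr3, Ier2, Ier3, Ier5, Dusp1, Nr4a1, Zfp36 and Btg2 are immediate early genes that do not encode an AP-1 factor, and their transcripts were measured in sorted hair follicle stem cells (HFSCs). The members were the 10 rows with these gene names among the 56941 genes of the raw count table, and all 10 passed the filter on low counts, which kept 32149 genes. The study compared total RNA of FACS sorted CD34+/α6-integrin+ cells from the dorsal skin of female mice at postnatal day 68 (PD68), as biological replicates, 3 of them labelled WT and 3 Dab2-cKO, at a time the study places in the second telogen, the resting phase of the hair cycle. All mice were of the strain B6;129S4-Dab2tm1Cpr/J, were homozygous for the floxed Dab2 allele and received tamoxifen at 75 mg/kg on 5 consecutive days. What set the Dab2-cKO mice apart was K14CreER, a tamoxifen-activated Cre recombinase under the Krt14 promoter, which is active in basal keratinocytes of the epidermis as well as in the hair follicle. Skin of both genotypes was kept in cold trypsin overnight, then incubated warm with fresh trypsin, before the cells were sorted. Tissue that had not been dissociated was not sequenced. The sources used here do not say whether 1 library holds the cells of 1 mouse or of several.

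Immediate early genes are transcribed within minutes of a stimulus, because the factors they need, such as SRF with its ternary complex partners and CREB on cAMP response elements (CREs), are present before it. Many of their transcripts carry AU-rich elements in the 3′ untranslated region (3′ UTR) and are short-lived, so that their level follows signaling closely. The 10 genes cover several steps of this response. EGR1, EGR2, EGR3 and the orphan nuclear receptor NR4A1 are transcription factors, DUSP1 is a phosphatase that switches off MAP kinases, and ZFP36 and BTG2 bring the CCR4-NOT deadenylase to transcripts. IER2, IER3 and IER5 are small regulatory proteins.

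Before the comparison, the targeted gene and the cell markers were examined. Dab2 had 304, 368 and 362 counts in the libraries labelled WT and 1504, 1130 and 1259 in those labelled Dab2-cKO, a log2 fold change of 2.08 (SE 0.080, adjusted p = 3.04e-34, edgeR's quasi-likelihood test with Benjamini-Hochberg adjustment over all genes tested). The targeted gene therefore went against the label, and a count per gene does not show whether the floxed exon was present. The columns of the count table are headed WT and FL-FL, and FL-FL was read as Dab2-cKO by the series title, which gives Dab2 cKO as Dab2 Fl/Fl. Since mice of both genotypes were homozygous for the floxed allele, the header FL-FL by itself does not tell them apart. Every direction below is therefore that of the libraries labelled Dab2-cKO in this way against those labelled WT. An exchange of the labels would reverse every direction, and each rank of a rise would be a rank of a fall. Total counts lay between 7040032 and 11696457 per library, so that a count of 0 allows a share of at most 2.56e-05% to 4.26e-05% (counting error only). The share of mitochondrial genes was 13% to 14.4% under the label WT and 19.1% to 20.3% under the label Dab2-cKO, and that of the 100 most abundant genes was 33.1% to 33.9% and 44.5% to 46.6%.

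The bulge marker Cd34, used for the sort, was detected in every library with a mean normalized count of 509.7 ± 53.8 (SD, n = 3) under the label WT and 1782 ± 35.7 (SD, n = 3) under the label Dab2-cKO. A normalized count is the count over the effective library size, which is the total times the TMM factor, multiplied by the mean effective size of the 6 libraries. Of 13 bulge markers listed for the check, 8 were higher under the label Dab2-cKO and 5 were lower. The higher ones were Cd34, Krt15 (log2 fold change 0.84), Nfatc1, Tcf7l1, Itga6, Col17a1, Krt5 and Krt14. Since Krt14 is also active in basal keratinocytes of the epidermis, not all of the 8 are specific to the bulge. The split therefore does not measure bulge identity. The lower ones were Sox9 (-1.45), Lgr5 (-1.32), Lhx2 (-1.43), Foxc1 (-1.001) and Tbx1 (-1.99). Markers of other cells moved with the label as well. The summed normalized count of 15 hair shaft and inner root sheath markers lay at 239300 to 287900 in the libraries labelled WT and at 3241 to 3297 in those labelled Dab2-cKO, with all 15 lower. That of 8 fibroblast markers went from 101900 to 123500 up to 356800 to 376700 (all 8 higher), and that of 8 markers of differentiated epidermis from 19380 to 22670 up to 76860 to 77100 (7 higher, 1 lower). Among 10 immune cell markers 8 were higher (1792 to 1990 against 7849 to 7975), all 8 endothelial markers were higher (1534 to 1723 against 5425 to 5528), and 7 of 8 melanocyte markers were lower (3653 to 4012 against 1360 to 1394). No marker was at 0 in all libraries, the defining markers Krt71, Pdgfra, Krt10, Ptprc, Pecam1 and Dct included. The part of these cells in the changes below was not tested, and in bulk RNA fewer cells of a type and less RNA per cell cannot be told apart.

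Of the 10 genes, 6 were higher in the libraries labelled Dab2-cKO, 1 was lower and 3 did not pass the test. Dusp1 rose the most, followed by Nr4a1, Zfp36, Btg2, Ier2 and Egr1, whereas Egr3 fell, and Egr2, Ier3 and Ier5 were not called (a call means an adjusted p below 0.05). Across the 32149 genes the same test called 28.2%, with 16.8% higher and 11.5% lower. Above a mean of 100 normalized counts, a level that 9 of the 10 genes and 10847 genes in all reached, 60.5% were called and 37.6% were called higher. All 7 called genes changed more than 1.5-fold, as 18.8% of all genes did with a call, and 4 of them (Dusp1, Nr4a1, Zfp36 and Btg2) were more than 2-fold higher, against 6.4% of all genes. The 7 were also those whose libraries did not overlap between the labels, 6 above and 1 below, which held for 38.3% of all genes (20.8% above and 17.5% below). The shares for fold and for non-overlap include genes of low counts and were not taken above that level of 100. They are therefore not matched to the level of the 10 genes. The median log2 fold change of the 10 genes was 0.68, and that of all genes tested was -0.02.

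**Figure D1:**
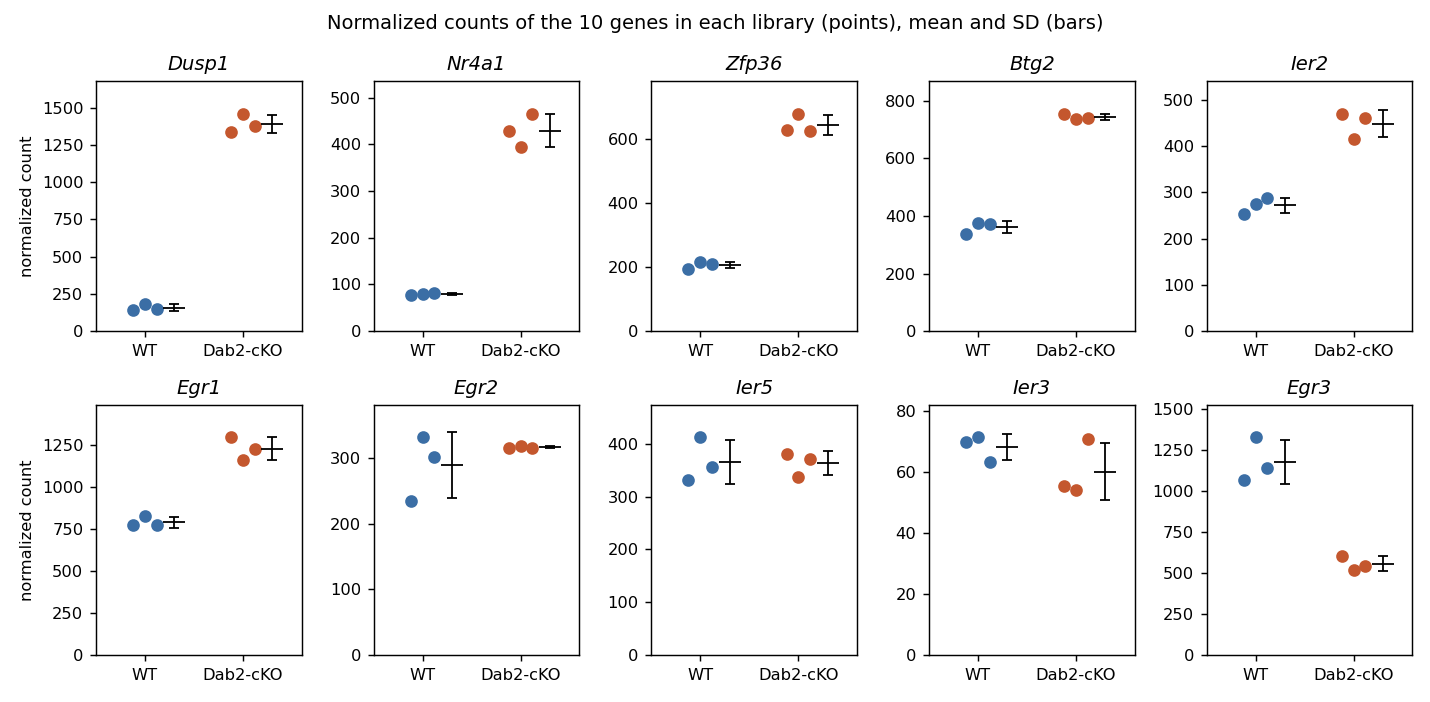
Normalized counts of the 10 immediate early genes, with 1 panel per gene on its own linear axis from 0. Points are the single libraries labelled WT (blue, n = 3) and Dab2-cKO (orange, n = 3), and bars give the mean and SD. The points of Dusp1, Nr4a1, Zfp36, Btg2, Ier2 and Egr1 lie higher under the label Dab2-cKO without overlap, those of Egr3 lie lower, and those of Egr2, Ier5 and Ier3 overlap.

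The EGR factors, zinc finger proteins that bind GC-rich sites and share their targets, did not move together. The normalized count of Egr3 (ENSMUSG00000033730, chr14:70314350-70320063, plus strand, GRCm39) was 1066, 1328 and 1139 in the libraries labelled WT and 606.4, 519.8 and 543.9 in those labelled Dab2-cKO. All 3 libraries labelled WT were above all 3 labelled Dab2-cKO, and the level was 2.12 times higher under the label WT (log2 fold change -1.08, SE 0.081, 95% interval -1.25 to -0.92, adjusted p = 3.96e-19). Egr1 (ENSMUSG00000038418) went the other way, with 771.7, 825.9 and 772.1 against 1297, 1165 and 1229. It rose 1.55-fold without overlap (log2 fold change 0.64, SE 0.074, adjusted p = 2.9e-11), but a test against a 1.5-fold change did not call it (adjusted p = 0.532). Egr2 (ENSMUSG00000037868, chr10:67371305-67378018, plus strand) had 234.3, 332.2 and 302.9 against 316.1, 319.2 and 316.2. Its libraries overlapped, and those labelled WT spread more widely (SD 50.2) than those labelled Dab2-cKO (SD 1.78). The log2 fold change of Egr2 was 0.12 with a 95% interval of -0.10 to 0.34 (adjusted p = 0.5), and it turned negative under other scalings.

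Because a ratio of genes within a library does not depend on the scaling, the EGR genes were also compared within each library, as counts per kb of annotated exon. These ratios were chosen after the values had been seen. Egr1 per Egr3 was 0.758, 0.651 and 0.71 in the libraries labelled WT and 2.24, 2.35 and 2.37 in those labelled Dab2-cKO. The order of both genes was thus the reverse in each of the 3 libraries of one label compared with the other, with a mean ratio 3.28 times higher under the label Dab2-cKO (exact permutation test, 2-sided p = 0.1, the smallest that 3 against 3 allows). Egr2 per Egr3 was 0.339 ± 0.0324 (SD, n = 3) against 0.791 ± 0.0652 (SD, n = 3), also without overlap and with the same exact p = 0.1. Egr4, the remaining member of the family, had a mean normalized count of 15.7 and 11.4 and was not called (adjusted p = 0.554). NAB1 and NAB2, corepressors that bind EGR proteins, changed in opposite directions. Nab1 was higher (log2 fold change 0.35, SE 0.079, adjusted p = 0.000245), and Nab2, itself known as a target of EGR factors, was lower (log2 fold change -0.99, SE 0.13, adjusted p = 4.06e-09).

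The transcript of the nuclear receptor Nr4a1 (Nur77, ENSMUSG00000023034, chr15:101151980-101172681, plus strand) was low under the label WT, with normalized counts of 77.7, 79.4 and 81.9 from 70, 88 and 96 counts. Under the label Dab2-cKO it reached 428.8, 394.1 and 465.5 from 449, 342 and 421 counts. Every library labelled Dab2-cKO was far above every one labelled WT, a 5.36-fold rise (log2 fold change 2.42, SE 0.12, 95% interval 2.17 to 2.67, adjusted p = 2.51e-27). Both relatives, Nr4a2 and Nr4a3, were higher as well. Nr4a2 had a log2 fold change of 0.56 (SE 0.19, adjusted p = 0.0164) and Nr4a3 one of 0.59 (SE 0.15, adjusted p = 0.000891). The difference between the family members was not tested.

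Dusp1 (MKP-1, ENSMUSG00000024190, chr17:26724564-26781102, minus strand), which removes the activating phosphates from p38, JNK and ERK, had 126, 205 and 178 counts under the label WT and 1401, 1267 and 1246 under the label Dab2-cKO. Its normalized counts were 139.9, 185 and 151.9 against 1338, 1460 and 1378. The lowest library labelled Dab2-cKO lay far above the highest labelled WT, and the gene rose 8.69-fold (log2 fold change 3.12, SE 0.090, 95% interval 2.94 to 3.30, adjusted p = 1.83e-41). Dusp1 had the 47th largest rise among all genes tested, and Nr4a1 the 178th. The other 7 dual specificity phosphatases of the list differed in direction. Dusp2, Dusp5, Dusp6 and Dusp8 were lower, Dusp10 was higher, and Dusp4 and Dusp16 were not called. Dusp2, like Dusp1 a nuclear phosphatase and an immediate early gene, had 102, 126 and 113 counts against 35, 30 and 25 and fell without overlap (log2 fold change -1.75, SE 0.22, adjusted p = 3.31e-10). Dusp6, a cytoplasmic phosphatase specific for ERK, had 337, 537 and 570 counts against 359, 287 and 260, which did not overlap after normalization (log2 fold change -0.49, SE 0.10, adjusted p = 5.28e-05). Dusp10 rose without overlap (log2 fold change 0.50, SE 0.13, adjusted p = 0.00195).

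Upstream sequences of Dusp1 and Nr4a1 are shown because these genes had the largest rises of the 10. Each run holds the 250 bases before the start of the canonical transcript in the GENCODE annotation (GRCm39, 5′ to 3′ on the strand of the gene, Dusp1 at chr17:26727494-26727743, minus strand, and Nr4a1 at chr15:101164410-101164659, plus strand). Capitals mark the CRE core TGACG, which reads CGTCA on the other strand. In Nr4a1 they also mark TTTATA at -195 to -190, a match to the TATA box motif TATAAA on the other strand.
Dusp1: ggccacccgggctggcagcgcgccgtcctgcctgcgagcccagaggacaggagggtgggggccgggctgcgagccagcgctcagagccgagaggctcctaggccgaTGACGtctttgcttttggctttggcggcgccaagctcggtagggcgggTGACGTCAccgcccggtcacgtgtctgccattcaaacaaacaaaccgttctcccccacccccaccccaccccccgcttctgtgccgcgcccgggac
Nr4a1: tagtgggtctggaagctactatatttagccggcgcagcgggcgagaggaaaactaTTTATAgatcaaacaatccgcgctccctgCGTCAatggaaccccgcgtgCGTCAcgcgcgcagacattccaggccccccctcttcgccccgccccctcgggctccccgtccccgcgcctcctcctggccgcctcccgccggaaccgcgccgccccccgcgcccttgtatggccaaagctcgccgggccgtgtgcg
Dusp1 holds the full palindromic CRE, TGACGTCA, at -96 to -89, with a GC box (GGGCGG) on either side of it, and a further TGACG at -144 to -140. Nr4a1 holds CGTCA at -166 to -162 and again at -146 to -142 but no full CRE. The full CRE also stood in the promoters of Ier2 (-43 to -36) and Btg2 (-201 to -194), so 3 of the 10 genes had one, against 2.44% of the 21667 promoters of protein-coding genes searched (250 bases before to 50 after the start, both strands). Its core TGACG, which every full CRE contains, stood in 7 of the 10 against 22.6% of all. Not all genes with the core rose, and Zfp36, which rose, had none. Of the other motifs named here, the GC box stood in 6 of the 10 against 42.5% of all, and the TATA box motif in 1 against 13.2%. A motif match is a description and no measurement of binding.

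Zfp36 and Btg2 encode proteins that shorten the life of transcripts. ZFP36 (tristetraprolin) binds AU-rich elements, and BTG2 binds the CAF1 subunit of CCR4-NOT. The normalized count of Zfp36 (ENSMUSG00000044786, chr7:28076209-28079710, minus strand) was 195.4, 216.6 and 209 under the label WT and 629.3, 680.0 and 625.8 under the label Dab2-cKO. The groups did not overlap, and the gene rose 3.10-fold (log2 fold change 1.63, SE 0.096, adjusted p = 4.12e-24). Btg2 (ENSMUSG00000020423, chr1:134002908-134015033, minus strand) had 337.5, 374.6 and 371.1 against 755.4, 737.6 and 739.6. It rose 2.05-fold without overlap (log2 fold change 1.04, SE 0.085, adjusted p = 3.05e-17), and its libraries labelled Dab2-cKO lay close together (SD 9.75). Among the paralogs, Zfp36l1 (log2 fold change 0.34, SE 0.074, adjusted p = 0.000106) and Zfp36l2 (0.86, SE 0.074, adjusted p = 2.21e-16) were higher. Tob1 and Tob2 of the BTG/TOB family were higher, whereas Btg1 (log2 fold change -0.25, SE 0.072, adjusted p = 0.00401) and Btg3 (-0.98, SE 0.10, adjusted p = 1.82e-12) were lower.

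Transcripts of the deadenylase that both proteins recruit did not rise as a set, and the complex itself was not measured. Above a mean of 100 normalized counts, 60.5% of all genes were called and 37.6% were called higher. Of 11 CCR4-NOT genes, 1 was higher and 5 were lower, with a median log2 fold change of -0.24. With upper-quartile scaling 8 were lower, and with library size only 10 were lower and 0 higher. The higher one was Cnot8 (0.42, SE 0.10, adjusted p = 0.000557), which encodes a CAF1 subunit, and its paralog Cnot7 was not called (0.03, SE 0.10, adjusted p = 0.903). The lower ones were the scaffold gene Cnot1 together with Cnot2, Cnot6, Cnot6l and Cnot9, with log2 fold changes between -0.53 and -0.34. Of 9 transcripts known as ZFP36 targets, 8 were tested and 0 were called lower by edgeR and by DESeq2, also 0 at an unadjusted p below 0.05. Ptgs2 (log2 fold change 1.08, SE 0.28, adjusted p = 0.00121) and Ccl2 (1.69, SE 0.36, adjusted p = 0.000103) were higher, and the list as a whole was low, with summed normalized counts of 182.3 to 218.7 and 270.8 to 316.2. Of these targets, 1 was called higher without Dab2-cKO replicate 3 or with library size only, and 3 were called higher without WT replicate 2.

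The AU-rich elements of the members are shown because the transcripts of the decay factor Zfp36 and of its candidate targets lie in the same set. The pentamer ATTTA stood in the 3′ UTR of 9 of the 10 genes, the exception being Ier2, against 67.5% of all genes with an annotated 3′ UTR. Per kb of 3′ UTR, Ier3 (8.16), Dusp1 (5.80), Nr4a1 (5.48) and Zfp36 (3.88) had the most pentamers, and the median over all genes was 1.27. The nonamer TTATTTATT, which contains the pentamer, stood in Dusp1 (2 times) and Zfp36 (1 time) and in 8.36% of all 3′ UTRs. Short stretches around adjoining pentamers follow, 5′ to 3′ on the strand of the gene with ATTTA in capitals (GRCm39, Dusp1 at chr17:26725138-26725152, minus strand, Ier3 at chr17:36133382-36133400, plus strand, and Zfp36 at chr7:28076385-28076410, minus strand).
Dusp1: cttATTTATTTAaca
Ier3: aatATTTAtgtATTTAtgt
Zfp36: tttATTTAtgacgactttATTTAttg

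The 3 IER genes, which are no family by sequence apart from Ier2 and Ier5, gave 1 rise and 2 genes without a call. The normalized count of Ier2 (ENSMUSG00000053560, chr8:85387960-85389483, minus strand), a nuclear regulator encoded by a single exon, was 253.2, 275.3 and 286.7 under the label WT and 469.9, 414.9 and 459.9 under the label Dab2-cKO. It rose 1.64-fold without overlap (log2 fold change 0.72, SE 0.10, adjusted p = 8.22e-09), but not past a test against a 1.5-fold change (adjusted p = 0.223). Ier5 (ENSMUSG00000056708, chr1:154972107-154975382, minus strand), whose protein works with the phosphatase PP2A to activate the heat shock factor HSF1, had 330.9, 412.5 and 355.8 against 381, 337.7 and 371.5. These values overlapped, and the 95% interval of its log2 fold change ran from -0.22 to 0.18. Ier3 (IEX-1, ENSMUSG00000003541, chr17:36132568-36133815, plus strand), a regulator of cell survival and of ERK signaling, had the lowest normalized counts of the 10 under both labels. It had 63, 79 and 74 counts against 58, 47 and 64. Its normalized counts of 69.9, 71.3 and 63.1 overlapped with 55.4, 54.2 and 70.8 and the interval of its log2 fold change was wide, from -0.61 to 0.24. Opposite-strand genes overlap 34.8% of the exon length of Ier3, 14.3% of that of Btg2 and at most 6.02% of that of the other genes, and since the strand setting of the counting is not given in the sources used here, reads of both strands cannot be told apart there.

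**Figure D2:**
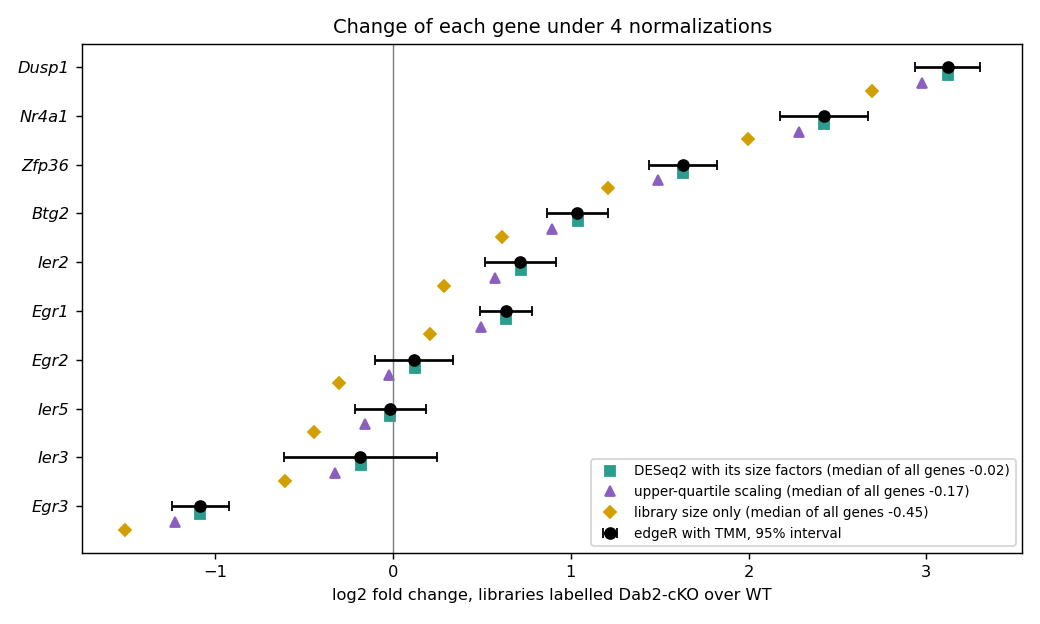
Log2 fold change of each gene between the libraries labelled Dab2-cKO and WT, on a linear axis, under 4 normalizations. Black points are edgeR's estimates with TMM, and bars are 95% intervals derived from its F statistics (3 libraries per label). Coloured symbols are other scalings whose median over all genes was -0.02, -0.17 and -0.45. Dusp1, Nr4a1, Zfp36, Btg2, Ier2 and Egr1 stay right of 0 and Egr3 left of 0 in all 4, and Egr2 lies on either side.

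Other scalings shifted the log2 fold changes of the genes together, which changes their distance from 0. With library size only, without TMM factors, the median log2 fold change of all genes moved to -0.45, and 2686 genes were called higher and 11168 lower, against 5387 and 3682 with TMM. With upper-quartile scaling the median was -0.17, and the split was 4281 higher and 5561 lower. Under library size only all 10 members were called, 6 higher and 4 lower, with Egr2 (-0.30), Ier5 (-0.44) and Ier3 (-0.61) close to the median of all genes. The rises of Dusp1, Nr4a1, Zfp36, Btg2, Ier2 and Egr1 and the fall of Egr3 kept their direction under all 4 scalings. Within the 10847 genes above that level of 100, the log2 fold change of Dusp1 stood at percentile 99.7, that of Nr4a1 at 98.8 and that of Zfp36 at 95.1. Ier2 (81.1) and Egr1 (78.6) stood far less apart, and Egr3 stood at 4.78.

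Taking the 10 genes as a pool, their summed level was 444.7 to 479.7 CPM (counts scaled to equal library totals) in the libraries labelled WT and 562 to 565.3 CPM in those labelled Dab2-cKO. With TMM scaling their summed normalized count was 3476 to 4101 against 6083 to 6277, 1.64 times higher under the label Dab2-cKO. The make-up of the pool differed as well. Egr3 held the largest share under the label WT, at 31.2% ± 1.04 (SD, n = 3) of the counts on the 10 genes, and 8.99% ± 0.589 under the label Dab2-cKO. Dusp1 went from 4.2% ± 0.27 to 22.5% ± 1.37 and held the largest share there. Egr1 kept a like share, 21% ± 1.07 and 19.9% ± 0.754, as did Ier2 (7.22% ± 0.485 and 7.24% ± 0.366). Since these shares sum to 100 in each library, a rise of one gene lowers those of the others.

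**Figure D3:**
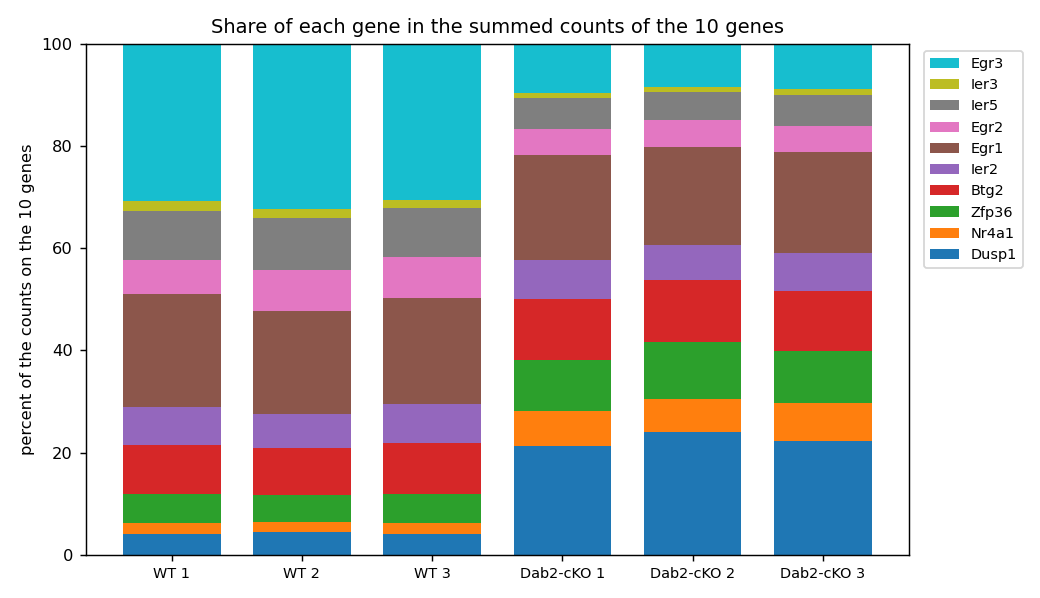
Share of each gene in the summed counts of the 10 genes, in percent, as stacked bars for the 6 libraries. Egr3, at the top of each bar, takes 30.5% to 32.4% in the libraries labelled WT and 8.54% to 9.66% in those labelled Dab2-cKO, and Dusp1, at the bottom, takes 4.02% to 4.51% and 21.3% to 24%.

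Levels were compared between genes as normalized counts per kb of annotated exon. Under the label WT the order was Egr3 (250.1 ± 28.7), Ier2 (178.3 ± 11.2), Egr1 (175.7 ± 6.94), Ier5 (111.8 ± 12.8), Egr2 (85.1 ± 14.8), Ier3 (59.8 ± 3.85), Zfp36 (59.1 ± 3.07), Btg2 (57.7 ± 3.27), Dusp1 (47.8 ± 7.04) and Nr4a1 (7.31 ± 0.193), each with the SD over 3 libraries. Ier2 and Egr1 overlapped in their libraries, and so did Ier3 with Zfp36, Zfp36 with Btg2 and Btg2 with Dusp1. Under the label Dab2-cKO Dusp1 led with 418.7 ± 18.8, above Ier2 (294.1 ± 19.2), Egr1 (273.7 ± 14.7), Zfp36 (184.2 ± 8.66), Btg2 (118.9 ± 1.56), Egr3 (118.2 ± 9.498), Ier5 (110.9 ± 6.96), Egr2 (93.2 ± 0.523), Ier3 (52.8 ± 8.12) and Nr4a1 (39.4 ± 3.27). Here Ier2 overlapped with Egr1, Btg2 with Egr3, and Egr3 with Ier5.

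Dusp1 thus went from the 9th to the 1st place among the 10, and from percentile 76.6 to 98.3 of the levels of 19501 protein-coding genes tested. Egr3 went from the 1st to the 6th place and from percentile 97.2 to 91.2. Zfp36 moved from percentile 81.7 to 95.2 and Nr4a1 from 13.8 to 68.6, whereas Egr1 (95.8 and 97.1) and Ier2 (95.9 and 97.3) were high under both labels. The level of Nr4a1 per kb rests on an exon length of 10903 bases from 29 annotated transcripts, and its WT value lies under the 95th percentile of 1526 chemosensory receptor genes (12.3 per kb), which serve as a measure of evenly spread background. Per kb of its canonical transcript of 2548 bases, Nr4a1 had 31.3 and 168.6, and its place moved from the 10th to the 6th. On that scale Dusp1 moved from the 7th place (79.9) to the 1st (699.4).

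**Figure D4:**
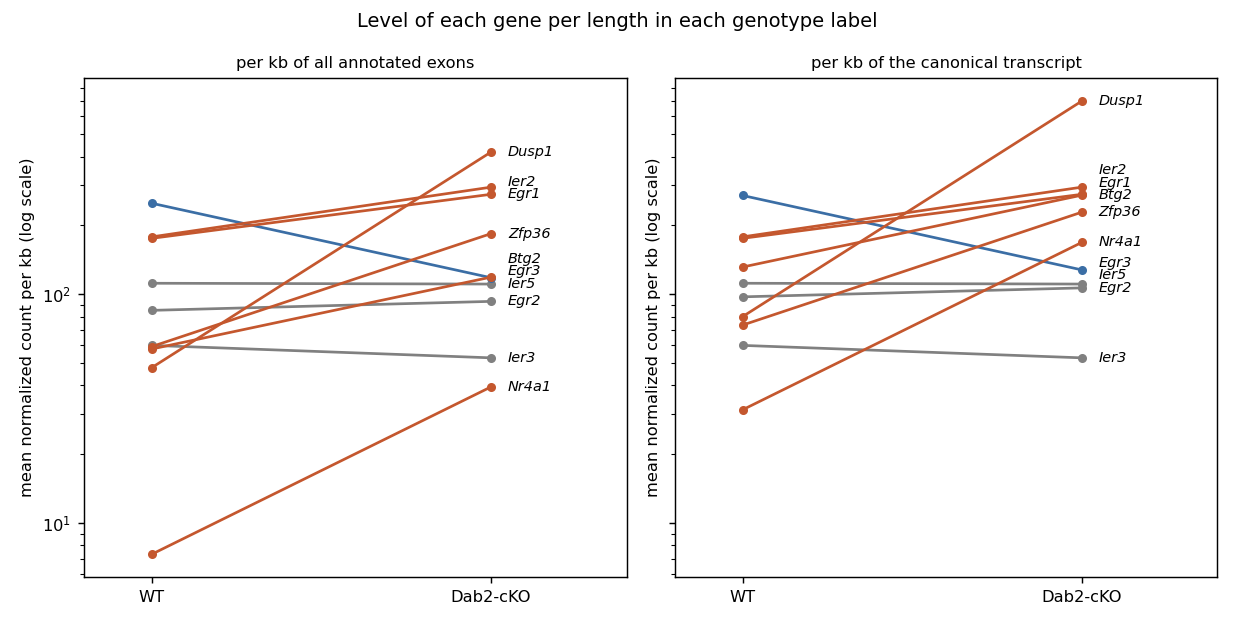
Mean normalized count per kb of each gene (log axis) in the libraries labelled WT and Dab2-cKO (n = 3 each, joined by a line), per kb of all annotated exons (left) and of the canonical transcript (right). Orange lines rose, the blue line fell and grey lines were not called by edgeR. The line of Dusp1 ends highest in both panels, Egr3 crosses the lines of Ier2, Egr1 and Zfp36 downward, and Nr4a1 is last at both ends on the left and rises to the 6th place on the right.

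Other immediate early genes were also compared. Across all genes tested, 16.8% were called higher and 11.5% lower, and above a mean of 100 normalized counts 37.6% were called higher. Of 34 further immediate early genes outside AP-1, 23 were higher and 3 lower, with a median log2 fold change of 0.75. With library size only, 16 were higher and 9 lower. The 5 most abundant were all higher, namely the Krüppel-like factors Klf4 (0.96, SE 0.074, adjusted p = 2.54e-18) and Klf6 (1.014, SE 0.075, adjusted p = 2.27e-19), the survival gene Mcl1, the EGFR inhibitor Errfi1 and the clock gene Per1. The lower ones were Plk3 (-1.06, SE 0.12, adjusted p = 5.16e-11), Trib1 and Plk2. Among the AP-1 factors 4 of 6 tested were higher and 0 were lower by edgeR and by DESeq2. Fosl2 was lower at an unadjusted p below 0.05, and 1 AP-1 gene was called lower without WT replicate 1 or with upper-quartile scaling, and 2 with library size only. Fos (2.87, SE 0.078, adjusted p = 3.74e-43) and Fosb (2.61, SE 0.091, adjusted p = 6.55e-37) had the largest changes, Jun (1.49) and Jund (0.76) followed, and Fosl2 and Junb were not called. The 17 relatives of the 10 genes had 7 higher and 6 lower and a median of 0.11, and with library size only 2 of them were higher. Among them Ier5l, a paralog of Ier5, had a log2 fold change of 0.52 without overlap and was not called (SE 0.22, adjusted p = 0.0686).

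A list of ERK and SRF signaling genes showed no common direction. Of its 26 genes, the EGR corepressors included, 7 were higher and 7 lower, with a median log2 fold change of -0.01. Above a mean of 100 normalized counts, 60.5% of all genes were called. The list mixes activators with corepressors and other inhibitors, so the split does not measure the activity of the pathway. The lower ones were the receptor gene Egfr (-0.88, SE 0.072, adjusted p = 3.37e-17), the kinase gene Braf (-1.498, SE 0.078, adjusted p = 5.06e-27), Hras, Nras, Rps6ka3, Creb1 and Nab2. The higher ones were Map2k1, Mapk3, Elk3, Mrtfb, Nab1, Spry1 and Spry2. Srf itself had a log2 fold change of 0.00 (SE 0.11, adjusted p = 0.989). The direction within this list depended on the scaling, since 12 genes were lower with upper-quartile scaling and 17 with library size only.

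**Figure D5:**
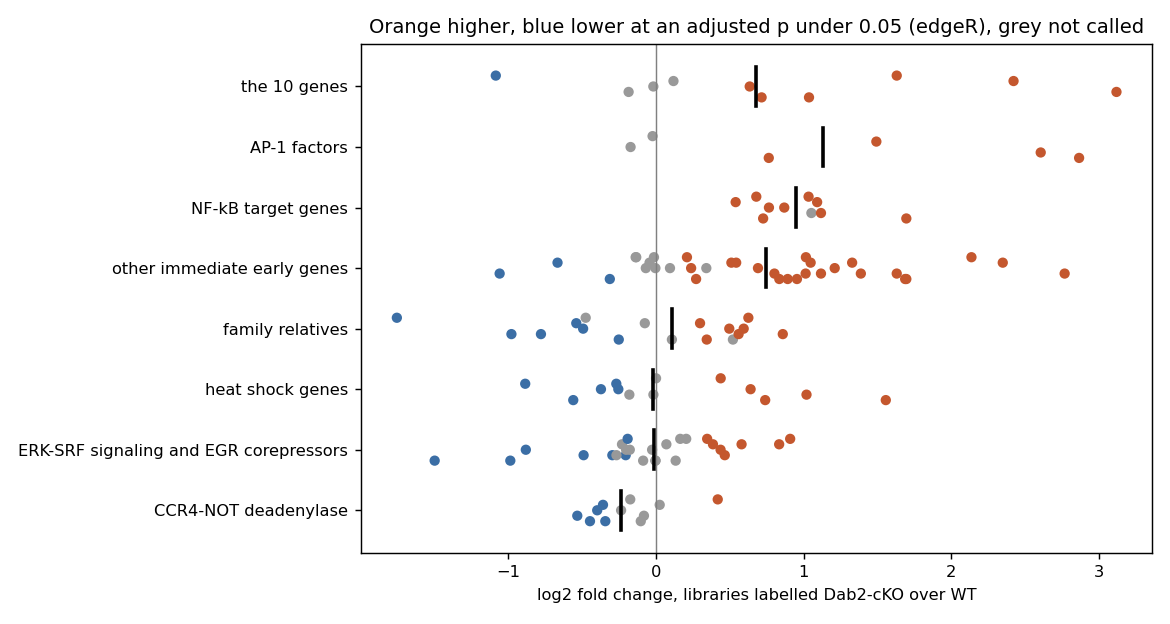
Log2 fold change of every tested gene of each list between the libraries labelled Dab2-cKO and WT (linear axis), with the list median as a black bar. Orange points were higher and blue points lower by edgeR's adjusted p (3 libraries per label), and grey points were not called. Nfkbia and Nfkbiz are drawn both as NF-kB targets and as other immediate early genes, and Srf both as the latter and as an ERK and SRF gene. The 10 genes, the AP-1 factors, the NF-kB targets and the other immediate early genes have medians of 0.68 and above, and the family relatives, the heat shock genes, the ERK and SRF genes and CCR4-NOT have medians between -0.24 and 0.11.

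The canonical transcript has 1 or 2 exons in 8 of them, 4 in Dusp1 and 7 in Nr4a1, and the median over 21667 protein-coding genes is 7. The genomic span was taken over all annotated transcripts of a gene, not over the canonical one. It exceeds the median of 19269 bases in Dusp1 (56539, 10 transcripts) and Nr4a1 (20702, 29 transcripts). In both, the canonical transcript starts inside this span, so it is shorter than the span. The other 8 spans lie between 1248 and 12126 bases. The exon GC content lies between 50.4% and 60.9%, above the median of 48% over these genes in all 10. Egr1 lies at chr18:34992876-34998049 on the plus strand. No member shares exon sequence with another gene on the same strand. An offset for GC content in the fit left 7 of the 10 genes called.

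The pattern of Ier2, the member with the highest mean level per kb of all annotated exons over both labels (per kb of the canonical transcript it was Dusp1), was compared with that of 10757 other genes over the 6 libraries. Likeness was measured as the root mean square difference of centred log2 normalized counts. The nearest were Adamtsl4, which encodes a protein of microfibrils, with a difference of 0.0197, Uqcrfs1, which encodes the Rieske protein of respiratory complex III, with 0.0393, and Gabarapl1, an autophagy gene, with 0.0407. Their log2 fold changes were 0.69, 0.65 and 0.72, beside 0.72 for Ier2.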

How the data were processed

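Total RNA (5 ng) of sorted HFSCs was made into libraries with a stranded kit for low input and sequenced as paired ends. The authors trimmed the reads with fastp 0.23.4, aligned them to GRCm39 with HISAT2 2.2.1 and counted them per gene with featureCounts 2.0.6, and the deposited table holds these raw counts, 3 libraries per genotype, without normalization. Strand setting, treatment of reads with several positions and annotation release are not given in the sources used here. The authors' own comparison was not used. It holds size-factor scaled counts, fold changes and p-values from DESeq2.

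The counts were filtered by edgeR 4.0.16 (R 4.3.3, limma 3.58.1) with its default expression filter, normalized by TMM and compared over all genes by the quasi-likelihood test with robust dispersions and no block. A gene was called when its p, adjusted by Benjamini-Hochberg over all genes tested, was below 0.05. Raw totals of 7040032 to 11696457 counts set the precision. Exon lengths, start sites and sequences came from the GENCODE annotation and the genome of GRCm39, to which 56323 of the 56941 genes matched. The script was tested on simulated data. Alternatives were DESeq2 1.42.0, other scalings and filters, a replicate block, GC offsets, a 1.5-fold null and each library left out.

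The members and lists were chosen with earlier results of these data known, so counts over lists are descriptions. Genes named were the members, Dab2, the 5 most abundant genes of a list, those behind counts of 5 or fewer, and the 3 genes nearest in pattern. Relatives outside these (Dusp2, Nr4a2, Nr4a3, Egr4, Ier5l and Btg3 among them), Nab1, Nab2, Srf, Cnot7 and bulge markers were named after their values were seen. So were the less abundant called genes of ERK and SRF signaling. Some items that this rule would name are not reported here.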

Additional observations from a re-analysis of the deposited data

How the results depend on the processing

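DESeq2, other filters, TMM without the most abundant genes and GC offsets kept 7 of the 10 genes called, 6 higher and 1 lower, as did leaving out each library in turn. Dusp1, Nr4a1, Zfp36, Btg2 and Egr3 kept their direction and their call in 16 of 16 alternatives, and Egr1 and Ier2 in 15. The range of log2 fold changes over the alternatives was 2.70 to 3.25 for Dusp1, 2.00 to 2.45 for Nr4a1, 1.21 to 1.67 for Zfp36 and -1.51 to -0.98 for Egr3. A test against a 1.5-fold change no longer called Egr1 (0.64, adjusted p = 0.532) or Ier2 (0.72, adjusted p = 0.223) and called 3358 genes in all, 2222 higher and 1136 lower.

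With library size only, 13854 genes were called, 2686 higher and 11168 lower. Of the members 4 were then lower, with Egr2 at -0.30 (adjusted p = 0.0133), Ier3 at -0.61 (adjusted p = 0.0198) and Ier5 at -0.44 (adjusted p = 4.86e-05). Upper-quartile scaling gave 5561 lower genes and Egr2 at -0.022 (adjusted p = 0.911). Both shift the median of all genes, to -0.45 and -0.17. The log2 fold change of Ier5 lay between -0.076 and 0.085 when single libraries were left out, with the sign turned to 0.085 without WT replicate 2 and to 0.0063 without Dab2-cKO replicate 2, and the cause was not tested. All genes called then numbered 7996 to 8546, from fewer libraries, and DESeq2 called 7586.

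With the replicate number as a block, 7 members and 8967 genes in all were called (9025 together with GC offsets), against 9069 without it, and no call of a member changed. Deviations of same-numbered libraries correlated at 0.135, -0.0475 and 0.105, and those of the other pairs between -0.19 and 0.112. WT replicates 1 and 3 correlated best with the Dab2-cKO library of the same number, and WT replicate 2 with Dab2-cKO replicate 3. With 3 libraries per label these values cannot decide whether libraries of the same number belong together. Depth limited Ier3 most, with 47 to 79 counts per library.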

Other observations

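Target genes of NF-kB, a factor that is activated by inflammatory and stress signals, were higher together with the immediate early genes. The lists are not separate, since Nfkbia and Nfkbiz are also counted among the other immediate early genes above. Of 10 such genes, 9 were higher in the libraries labelled Dab2-cKO and 0 lower by edgeR's quasi-likelihood test with Benjamini-Hochberg adjustment (also 9 and 0 by DESeq2, and 0 lower at an unadjusted p below 0.05), with a median log2 fold change of 0.95 (median of all genes -0.02). The same edgeR test called 16.8% of all genes higher, and 37.6% of those above a mean of 100 normalized counts. The most abundant NF-kB targets were Nfkb1 (0.54, SE 0.076, adjusted p = 1.09e-08), the NF-kB inhibitor gene Nfkbia (1.70, SE 0.092, adjusted p = 6.75e-26), Nfkbiz (1.12), Birc3 (0.73) and Tnfaip3 (1.03). Cxcl1 was not called (1.053, SE 0.47, adjusted p = 0.0945), with mean normalized counts of 9.20 and 19.2. Immune cell, endothelial and fibroblast markers moved with the same label, and their part was not tested.

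Heat shock genes had no common direction, with 5 of 13 higher, 5 lower and a median log2 fold change of -0.02, and with library size only 8 were lower. Above a mean of 100 normalized counts, 60.5% of all genes were called. The higher heat shock genes were Hspa1a (1.56, SE 0.12, adjusted p = 1.34e-18), Hspa1b (1.02, SE 0.080, adjusted p = 4.71e-18), Bag3 (0.74), Dnajb1 (0.64) and Hspb1 (0.44). Hspa1a and Hspa1b are nearly identical copies, so reads could be split between them. The lower ones were Hsp90aa1 (-0.88, SE 0.072, adjusted p = 2.42e-17), Hspd1 (-0.56), Hsph1 (-0.37), Hspa8 (-0.27) and Hspa5 (-0.25). The most abundant gene of the list, Hsp90ab1, had mean normalized counts of 10870 and 10910 and was not called (0.00, SE 0.069, adjusted p = 0.993).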
